A study of Rattus norvegicus with 18 samples.

Results

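Chlorothalonil-treated NRK-52E cells were followed from 6 to 24 h of exposure. The comparison takes the 3 arrays of treated cells at 24 h against the 3 arrays of treated cells at 6 h, chosen by the treatment and time in their titles, so 6 of the 18 arrays of the series make up the course. NRK-52E is an established line of rat kidney epithelium, labelled as proximal tubule and as Osborne-Mendel in strain. Cultures were grown to confluence and then kept in chlorothalonil at 1.1 µM in 0.1% DMSO, a dose that the labels give as inhibiting by 10% at 72 h. Cells in 0.1% DMSO alone at 6 and 24 h, again 3 arrays each, show how the confluent culture changed over the same hours without the fungicide. Both courses share the line, the medium with 10% serum, the confluence and the vehicle. The titles describe each trio as biological replicates, but nothing states separate thaws of the line. The other 12 arrays are the DMSO cells at both times and both treatments at 72 h. The 72 h arrays enter no comparison, and add to the estimate of spread and to the choice of genes and probe sets. The question is how the response of the treated cells moves on during the first day.

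Chlorothalonil is an organochlorine fungicide whose ring carbons react with thiols such as that of glutathione. Cells answer thiol-reactive compounds with several programmes. Modified thiols on KEAP1 release the factor NRF2, which turns on genes of glutathione, thioredoxin and detoxification. Unfolded protein releases the factor HSF1, which turns on chaperones, and the integrated stress response lowers protein synthesis while the factor ATF4 turns on amino acid supply. Immediate early genes such as Fos and Egr1 are switched on within minutes of a signal and usually fade. Confluent epithelium leaves the cell cycle as neighbours touch and serum factors are used up.

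The labelled cell type was checked on its markers. Of 10 proximal tubule markers on the array, 9 lay at background (log2 4 or below) in all 6 treated arrays, among them Lrp2, Cubn, Aqp1 and Hnf4a. Ggt1, an enzyme of the brush border, was the one present, at log2 9.06 ± 0.17 at 6 h and 8.58 ± 0.22 at 24 h (mean ± SD, n = 3). Among 8 epithelial markers, Krt8, Tjp1 and Ocln were present, with Krt8 at 14.33 ± 0.044 and 14.35 ± 0.11, whereas Krt18, Krt19, Epcam, Cdh1 and Cldn1 lay at background in all treated arrays. All 6 distal nephron markers, 6 of 7 leukocyte markers on the array, all 6 endothelial ones there and 2 of 4 podocyte ones were at background too. Genes of the marker lists were set with earlier results known, and those named only as markers lie outside the rule for named genes.

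Values are log2 expression on the authors' scale. Replicate arrays of a treated group were correlated at 0.993 to 0.996 across genes, and arrays of the 2 times at 0.954 to 0.964. A gene is called when limma's p-value, adjusted by the Benjamini-Hochberg method over all 9148 genes tested, is below 0.05. A gene at log2 4 or below in all 3 arrays of a group counts as at background there, and its fold change is a bound against log2 4. The spiked poly-A transcripts, added to the RNA before labelling, had means over 24 probe sets of 10.46, 10.84 and 10.49 in the treated arrays at 6 h and of 11.19, 10.59 and 10.80 at 24 h. They were brighter by 0.27 at 24 h (exact two-sided permutation p = 0.3, n = 3 per time, where 0.1 is the smallest possible p). Scaling each array to them moved the median change of all genes from 0.05 to −0.21, a shift that applies to every gene. The 3′ minus 5′ signal of actin, a measure of RNA integrity or labelling, was 0.90 to 0.95 in the treated arrays at 6 h and 1.03 to 1.16 at 24 h, and its part in the results was not tested. Changes are given on the deposited scale, and the sign of a median that turned when scaled to the controls is given beside it or with the alternatives.

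From 6 to 24 h, 3166 genes rose in the treated cells (34.6% of those tested) and 2282 fell (24.9%). Of these, 677 rose at least 2-fold (7.40%) and 310 fell at least 2-fold (3.39%). The counts of every list below are to be read beside the 34.6% and 24.9% of all genes. The 3 arrays of the times did not overlap for 3055 of the genes called higher and for 2208 of those called lower. A further 389 and 460 genes did not overlap, higher and lower at 24 h, with no call. When scaled to the poly-A controls, 529 genes rose and 975 fell, so the share of higher genes among those called went from 58.1% to 35.2%. Under DMSO, 3010 genes rose (32.9%) and 3663 fell (40.0%) between the same times. The typical change was smaller in the treated cells, with a median absolute log2 change of 0.33 against 0.52 under DMSO, and 989 genes moved by at least 1 on the log2 scale against 2107.

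The courses can be set against each other, since they share no array. Tested as the treated minus the DMSO change, 3623 genes moved more upward in the treated cells (39.6%) and 2138 more downward (23.4%). Scaling to the poly-A controls turned that balance, to 259 and 1232. Among genes called in both courses, 1628 rose in both and 1491 fell in both, while 696 rose with chlorothalonil and fell under DMSO and 370 did the reverse. A further 842 rose and 421 fell in the treated cells alone with no call under DMSO, while 1012 rose and 1476 fell under DMSO with no call in the treated cells.

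**Figure D1:**
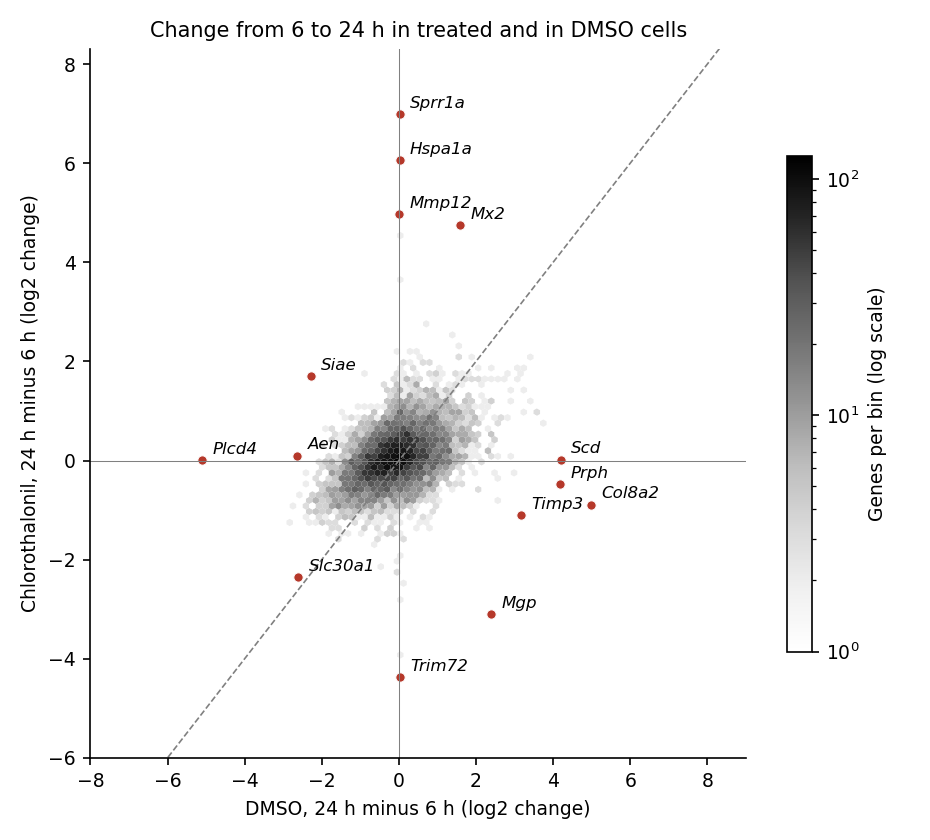
Log2 change from 6 to 24 h in DMSO cells (horizontal) and in chlorothalonil-treated cells (vertical) for 9148 genes, as counts per hexagon on a log grey scale, with 14 named genes in red. The dashed line marks equal change. Points of genes at background in a group are plotted at their fitted values, which are not bounds. Sprr1a (at least 49.9-fold), Hspa1a (6.07) and Mmp12 (at least 9.29-fold) rose in the treated cells and lay at background in DMSO, and Mgp, Timp3 and Col8a2 lie in the lower right, where DMSO cells rose and treated cells fell.

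Genes with provisional symbols, such as those starting with LOC or RGD, were left out of the rankings. Among called genes with no overlap between the times, the steepest rise by fitted change was that of Sprr1a. It is a small proline-rich protein of the cornified envelope that also appears in stressed tissue. Its log2 values were 2.58, 3.40 and 1.98 at 6 h and 9.67, 9.86 and 9.39 at 24 h, at least 49.9-fold higher (adjusted p = 6.64e-11), and in DMSO it lay at background at both times. Mmp12, a macrophage-type metalloelastase, went from 2.13, 2.46 and 2.13 to 6.89, 7.66 and 7.09, at least 9.29-fold. Stmn4, a microtubule-destabilising stathmin, rose at least 11-fold, Sdcbp2, a syntenin, at least 12.5-fold, Ppfibp2, a liprin, at least 10-fold, Mpped1 at least 6.37-fold and Ly6g6c at least 5.58-fold. All 7 of these genes were at background in every treated array at 6 h and in every DMSO array. The probe set for Stmn4 may also bind related transcripts. Abtb1 rose from 3.51, 2.62 and 4.12 to 7.99, 7.90 and 7.91 and rose less under DMSO (1.55 against 4.52). Dhrs3, a retinaldehyde reductase induced by retinoic acid, rose at least 9.65-fold, and Saa3, an acute-phase serum amyloid, at least 10.9-fold. Those last pair rose under DMSO as well, by at least 35.2-fold and at least 17-fold.

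The steepest falls, ranked the same way, were mostly of genes that had been high only in the treated cells at 6 h. Trim72, a membrane repair protein best known in muscle, stood at 7.57, 7.81 and 7.41 at 6 h and at 4.15, 3.25 and 2.27 at 24 h, and fell by 4.37 (SE 0.37, adjusted p = 1.52e-07), with 1 of 3 arrays above background at 24 h. Iqub fell at least 8.2-fold, Aoc3, a vascular amine oxidase, at least 10.6-fold, Spdya, an activator of CDK2, at least 5.21-fold, Ampd1, AMP deaminase of muscle, at least 3.91-fold, Cdo1, cysteine dioxygenase, at least 4.04-fold and Crxos1 at least 3.82-fold, all to background. These 6 genes and Trim72 lay at background in DMSO at both times. Dnase1l3, a secreted DNase, fell at least 6.17-fold, Palldl1 at least 6.28-fold and Trpc6, a calcium channel, at least 4.99-fold. Thyroglobulin (Tg) was among the steepest falls as well, and Mylk3, a myosin light chain kinase, went from 8.67, 8.70 and 8.23 to 5.50, 4.08 and 6.01. These last 5 fell under DMSO as well. Spdya and Trpc6 are read by probe sets of the less specific type.

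Of the 12 genes with the largest rise, 8 were at background throughout DMSO culture (Hspa1a included), and so were 7 of the 12 with the largest fall. These are counts over genes picked by their treated change, and no test goes with them. The pick used fitted changes among called genes with no overlap between the times, leaving out provisional symbols. For genes at background, their place among the 12 therefore depends on values below log2 4.

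Among 42 tested heat shock and chaperone genes, 5 rose and 13 fell, beside 34.6% and 24.9% of all genes, with a median change of −0.09 against −0.68 under DMSO, where 35 fell. Small heat shock proteins, which hold unfolded protein, were listed with BAG factors, and 3 of these 6 genes rose and 1 fell. In the chaperonins, ring-shaped folding machines, 5 of 11 fell and none rose, and 3 of 5 HSP70 and HSP110 genes fell. Of 6 HSP40 genes 1 rose and 1 fell, and of 11 HSP90 and co-chaperone genes 2 fell. The roles were not tested against each other. When scaled to the poly-A controls, 2 rose and 4 fell over the whole list.

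Hspa1a, an inducible HSP70, lay near background at 6 h, at 3.96, 4.99 and 3.81 with 1 of 3 arrays above it. At 24 h it stood at 10.77, 10.09 and 10.11. The groups did not overlap, as held for 3055 of the 3166 genes called higher and as the pick of the 12 largest changes required. The rise was 6.07 (SE 0.33, adjusted p = 2.15e-09), with DMSO arrays at background at both times. Hspa1b, Hspa1l and Hspa8 of the same list were not tested. Of the 5 HSP70 and HSP110 genes tested, 4 were called above DMSO at 6 h already. Hspb1, the small chaperone HSP27, rose from 13.10, 13.03 and 12.98 to 14.18, 14.27 and 14.08, by 1.14 (SE 0.069, adjusted p = 4.3e-09), where DMSO fell by 0.22. Hspb8, another small heat shock protein, rose by 1.05 from 11.03, 11.12 and 11.32 to 12.20, 12.28 and 12.14. Dnajb1, the HSP40 that hands clients to HSP70, moved the other way, from 14.39, 14.58 and 14.59 to 13.26, 12.99 and 13.07. It fell by 1.41 (SE 0.082, adjusted p = 3.14e-09) yet was still 2.04 above DMSO at 24 h. Hsph1, the HSP110 that recharges HSP70, fell by 0.52. Hspb8 and Hsph1 were not called when scaled to the poly-A controls.

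These chaperones share a promoter element while their levels moved apart, so their promoters are shown. They were picked after the values were seen, and the window of Hspa1a held 0 matches. Each sequence is the 250 bases before the annotated start, 5′ to 3′ on the gene's strand, from RefSeq on assembly GRCr8, and capitals mark the heat shock element searched, GAANNTTC, which reads the same on both strands. Hspb1 lies at chr12:26432302-26432551 on the minus strand, Hspb8 at chr12:45837058-45837307 on the plus strand, Hsph1 at chr12:10427118-10427367 on the plus strand and Dnajb1 at chr19:41431142-41431391 on the minus strand.
Hspb1, higher at 24 h: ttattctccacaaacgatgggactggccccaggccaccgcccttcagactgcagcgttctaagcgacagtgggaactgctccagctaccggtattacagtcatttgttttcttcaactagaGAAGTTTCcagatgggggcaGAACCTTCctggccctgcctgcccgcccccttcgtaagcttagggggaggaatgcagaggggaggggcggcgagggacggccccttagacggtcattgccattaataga
Hspb8, higher at 24 h: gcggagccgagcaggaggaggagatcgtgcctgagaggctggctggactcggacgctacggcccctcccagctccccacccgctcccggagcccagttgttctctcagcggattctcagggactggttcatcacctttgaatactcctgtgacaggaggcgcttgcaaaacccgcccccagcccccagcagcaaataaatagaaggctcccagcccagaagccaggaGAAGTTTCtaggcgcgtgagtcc
Hsph1, lower at 24 h: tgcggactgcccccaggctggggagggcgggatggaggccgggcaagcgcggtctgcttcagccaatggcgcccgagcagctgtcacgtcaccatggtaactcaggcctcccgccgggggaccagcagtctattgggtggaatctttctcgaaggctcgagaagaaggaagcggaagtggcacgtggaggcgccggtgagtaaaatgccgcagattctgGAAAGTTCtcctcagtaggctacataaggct
Dnajb1, lower at 24 h: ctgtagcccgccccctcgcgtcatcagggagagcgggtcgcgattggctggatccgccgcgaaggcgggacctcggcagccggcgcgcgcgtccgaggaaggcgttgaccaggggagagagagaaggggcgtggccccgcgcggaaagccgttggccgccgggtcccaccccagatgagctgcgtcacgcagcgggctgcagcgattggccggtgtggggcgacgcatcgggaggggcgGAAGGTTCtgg
Hspb1 holds 2 matches and the other promoters 1 each. Of 37 tested chaperone genes with a promoter in the table, 12 (32.4%) held the element, against 7.02% of 27457 promoters of that length and 4.75% of the 7723 among them that belong to tested genes. For each element that follows, the share over all promoters is given first and that over tested genes next. The median change of those with and without it was −0.12 in both.

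**Figure D2:**
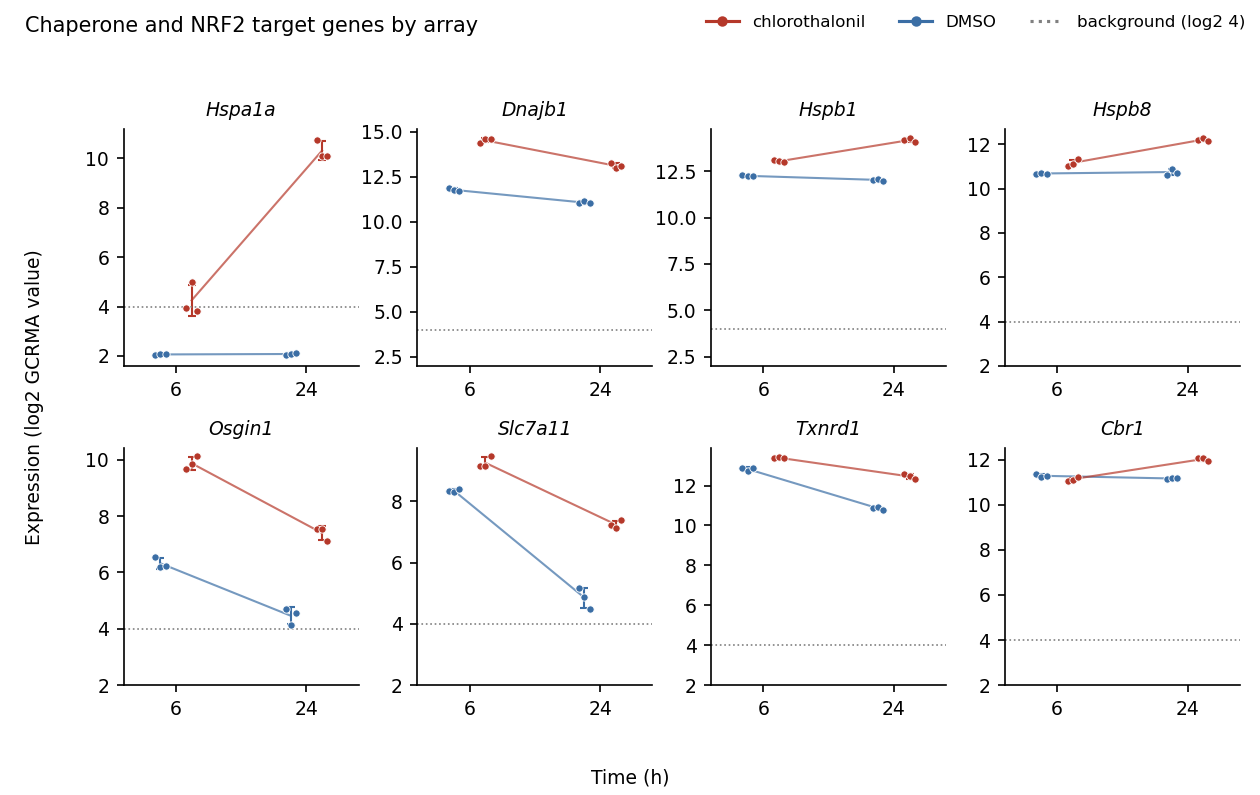
Log2 values of 4 chaperone genes (top) and 4 NRF2 target genes (bottom) at 6 and 24 h in chlorothalonil (red) and DMSO (blue), with points for arrays, bars for mean ± SD (n = 3) and a dotted line at background. Hspa1a, Hspb1, Hspb8 and Cbr1 rose in the treated cells and Dnajb1, Osgin1, Slc7a11 and Txnrd1 fell. None overlapped between the treated times, as held for most genes called.

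NRF2 targets also went both ways. Of 46 tested, 22 rose and 8 fell. Their median was 0.17, against −0.06 under DMSO, and −0.10 when scaled to the poly-A controls, where 2 rose and 6 fell. All 6 genes of quinone reduction and NADPH supply rose, as did 7 of 14 of conjugation, detoxification and efflux. Under DMSO 4 of those 6 and 8 of those 14 rose too, with medians of 0.53 and 0.78 against 0.41 and 0.34. The difference was called upward for 2 and 5 of them and downward for 2 and 6. Glutathione genes had 3 higher and 3 lower of 9. Under DMSO 2 of these rose and 6 fell, and the difference was called upward for 5 and downward for 2. Several members that fell had stood above DMSO at 6 h, Hmox1 by 4.20, Osgin1 by 3.55 and Slc7a11 by 0.91. Osgin1, an oxidative stress-induced growth inhibitor, went from 9.67, 9.84 and 10.13 to 7.54, 7.55 and 7.12, and fell by 2.48 (SE 0.17, adjusted p = 1.22e-08). Slc7a11, the cystine importer that feeds glutathione, went from 9.16, 9.14 and 9.47 to 7.23, 7.12 and 7.38, and fell by 2.02 where DMSO fell by 3.5. In neither gene did the times overlap, as held for 2208 of the 2282 genes called lower.

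Hmox1, which degrades heme, fell by 1.59 from 12.39, 12.73 and 12.67 to 11.33, 10.75 and 10.95. Txnrd1, thioredoxin reductase, fell by 0.94 where DMSO fell by 1.97. Cbr1, a carbonyl reductase, rose by 0.89 from 11.09, 11.13 and 11.23 to 12.08, 12.11 and 11.94, and Nqo1, the quinone reductase, rose by 0.33 where DMSO fell by 0.77. Both lost the call when scaled to the poly-A controls. Gclm, a subunit of the enzyme that starts glutathione synthesis, rose by 0.25 and Nfe2l2, NRF2 itself, by 0.13. These small changes turned to −0.02 and −0.13 when scaled to the controls, and leaving out single arrays ended the Gclm call without 6 h replicate 1 or 2 or without any of the 24 h replicates (adjusted p 0.0621 to 0.209). For Nfe2l2 the call was lost without 6 h replicate 1 or 2 or without any 24 h replicate (adjusted p 0.0656 to 0.119). Srxn1, sulfiredoxin, changed by −0.31 (adjusted p = 0.0912) and Sqstm1, the autophagy receptor p62, by 0.18 (adjusted p = 0.157). On the mean of their probe sets both were called, Srxn1 at −0.51 (adjusted p = 0.0251) and Sqstm1 at 0.52 (adjusted p = 0.0115). The antioxidant response element searched, TGACNNNGC on either strand, stood in 6 of 41 target promoters (14.6%) against 10.2% and 12.7%.

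Genes of the integrated stress response fell together. Of 29 tested, 26 fell and 1 rose, with a median of −0.61 against −0.84 under DMSO, and 16 fell when scaled to the poly-A controls. The difference from DMSO was called upward for 13 and downward for 8 (0 and 6 when scaled to the controls). On the deposited scale 17 of the 29 were called above DMSO at 6 h and 23 at 24 h, with 0 and 3 below it. All 12 genes of amino acid synthesis or uptake and all 6 of the serine and one-carbon pathways fell. Under DMSO 10 of those 12 and all of those 6 fell too. The difference was called upward for 4 of the 12 and downward for 4, and upward for all 6 of the others. Slc7a1, an importer of cationic amino acids, went from 11.72, 11.70 and 11.63 to 10.29, 10.16 and 10.13 and fell by 1.48 (adjusted p = 3.44e-08). Aldh18a1, of proline synthesis, fell by 1.06, Cth, which makes cysteine, by 1.02 and Psph, the last step to serine, by 0.86. Of 11 stress factors in the list 8 fell and 1 rose. Trib3, a pseudokinase target of ATF4 and CHOP, fell by 0.84 from 10.80, 11.05 and 10.99 to 10.11, 10.00 and 10.20. Ddit3, CHOP itself, fell by 0.41 and, among the amino acid genes, Asns, asparagine synthetase, by 0.38, which lost their calls when scaled to the controls. The Asns change was smaller than the −1.68 under DMSO (adjusted p of the difference = 1.93e-07).

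The CEBP-ATF element TGATGNAA, searched on both strands, stood in 6 of 27 promoters of the list (22.2%) against 3.27% and 1.74%, and the promoter of Trib3 (chr3:161275534-161275783, minus strand, GRCr8) is shown with it in capitals as an example of a falling target.
Trib3: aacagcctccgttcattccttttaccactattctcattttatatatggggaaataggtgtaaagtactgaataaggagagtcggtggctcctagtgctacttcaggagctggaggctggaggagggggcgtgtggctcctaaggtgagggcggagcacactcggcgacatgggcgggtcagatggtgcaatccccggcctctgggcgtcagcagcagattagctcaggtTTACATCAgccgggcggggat
Aminoacyl-tRNA synthetases, which charge tRNAs and are themselves ATF4 targets, fell as well, 14 of 19 lower and 1 higher with a median of −0.49 (−1.18 under DMSO). Vars1 fell by 0.88, Eprs1 by 0.63, Farsb by 0.62 and Rars1 by 0.51, and the difference from DMSO was called upward for 16 of the 19, which became 0 when scaled to the poly-A controls, where the Rars1 call was lost too.

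In the endoplasmic reticulum list, 5 genes rose and 13 fell of 31, with a median of −0.06 against 0.47 under DMSO, and 22 of the 31 moved less upward than under DMSO. On the poly-A scale 0 rose and 3 fell, and 11 moved less upward. Chaperones of the compartment had 6 of 12 lower and none higher. Herpud1, which helps clear misfolded protein, fell by 1.43 from 12.26, 12.51 and 12.47 to 11.17, 10.91 and 10.87 (adjusted p = 6.01e-09), and Dnajb9, a co-chaperone, by 0.68. The ubiquitin ligase pair of the same clearance route rose, Sel1l by 1.08 from 9.12, 8.99 and 9.12 to 10.02, 10.36 and 10.10 and Syvn1 by 0.65, both not called when scaled to the poly-A controls.

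Proteasome genes rose, and most fell under DMSO. Of the 41 tested, 29 were higher and 4 lower, with a median of 0.27 against −0.38 under DMSO, where 30 fell, and 32 moved more upward than under DMSO. In the regulatory particle, the cap that unfolds substrates, 10 of 12 rose. The changes were small, and when scaled to the poly-A controls 1 gene rose and 0 fell, with a median of 0.01. On that scale the difference from DMSO was called upward for 0 genes and downward for 3. Nfe2l1, the factor that drives proteasome genes, rose by 1.30 from 9.24, 9.18 and 9.20 to 10.46, 10.60 and 10.46 and by 1.34 under DMSO, while its other probe sets gave 0.10 to 0.72. Psmd3 rose by 0.72, Psmd13 by 0.51 and the interferon-inducible subunit Psmb9 by 0.86. In the ubiquitin and p97 list 4 rose and 5 fell of 13 (0 and 2 when scaled to the controls). Zfand2a, an arsenite-inducible proteasome helper, fell by 1.37 from 14.83, 15.06 and 15.10 to 13.59, 13.65 and 13.64, and Zfand5 by 0.69. Nploc4, an adaptor of the p97 segregase, rose by 0.69 with another probe set at −0.32, and Uchl5, a deubiquitinase, fell by 0.37. Psmd3, Psmd13, Psmb9, Nploc4 and Uchl5 lost their calls when scaled to the controls.

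More immediate early genes fell than rose. Of 39 tested, 15 fell and 6 rose, with a median of −0.19 (0.02 under DMSO), and 16 moved less upward than under DMSO. Scaled to the poly-A controls, 1 rose and 14 fell. On the deposited scale, 34 of the 39 were called above DMSO at 6 h and 30 at 24 h, with median differences of 1.44 and 1.29. Fosb fell by 1.61 from 8.13, 8.41 and 8.16 to 7.03, 6.21 and 6.65, and Egr2 by 1.54 from 9.42, 9.41 and 9.38 to 8.04, 7.68 and 7.86, both transcription factors of the early response. Srf, the factor that drives many of these genes, fell by 1.03. Fos fell by 0.67 from 12.96, 12.91 and 12.84 to 12.45, 11.97 and 12.27, while under DMSO it rose by 2.62. That left Fos 4.21 above DMSO at 6 h and 0.92 above it at 24 h. Egr1 fell by 0.81 where DMSO rose by 0.85, and Atf3, a repressor of the stress response, fell by 0.95. Jund, the AP-1 partner linked to quiescence, rose by 1.22 from 11.62, 11.26 and 11.61 to 12.53, 12.89 and 12.74. Jun changed by −0.07 (adjusted p = 0.458), with other probe sets between −1.15 and 0.02, Fosl1 by −0.53 (adjusted p = 0.334) and Myc by −0.23 (adjusted p = 0.344). The AP-1 element TGANTCA stood in 1 of 30 promoters of the list, 3.33% against 6.36% and 4.14%.

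Interferon-responsive genes rose more than those of any other list described here, by their median. Of 20 tested, 17 rose and 2 fell, with a median of 1.41, and 12 rose with a median of 1.14 when scaled to the poly-A controls. DMSO cells gained them as well, 14 higher and a median of 0.92, and the difference was called upward for 8 of 20 and downward for 4 (2 and 3 when scaled to the controls). Without the filter on low values the median was 0.80. The factors of the pathway had 6 of 7 higher with a median of 2.06, or 1.51 with members at background set to their bound. The effectors had 11 of 13 higher with a median of 1.20, or 0.80 so bounded.

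Irf7, the factor that amplifies interferon production, stood at 6.42, 6.39 and 6.10 at 6 h and at 8.73, 9.08 and 9.15 at 24 h. It rose by 2.68 (SE 0.11, adjusted p = 1.01e-10), more than the 1.22 under DMSO (adjusted p of the difference = 1.45e-06). Mx2, an antiviral GTPase, came from background at 3.14, 3.48 and 2.77 to 7.33, 8.18 and 8.14, at least 14.8-fold higher, where DMSO rose at least 1.61-fold. Its other probe set gave 2.66. Stat2, which carries the interferon signal to the nucleus, rose by 2.13 and by 2.28 under DMSO, and Ifi35 by 1.65 and 1.98.

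The promoter of Irf7 (chr1:205800024-205800273, minus strand, GRCr8) is shown as a member that rose more than under DMSO. No promoter was matched for Mx2. Capitals mark the interferon element TTTCNNTTT, searched on both strands.
Irf7: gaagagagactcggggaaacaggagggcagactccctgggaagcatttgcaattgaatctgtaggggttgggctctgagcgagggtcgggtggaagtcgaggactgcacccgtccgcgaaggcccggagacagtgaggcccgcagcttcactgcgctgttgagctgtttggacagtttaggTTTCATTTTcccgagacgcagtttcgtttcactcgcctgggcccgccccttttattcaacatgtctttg
This element was added to the search after the values had been seen. It stood in 10 of 16 promoters of the list (62.5%) against 10.1% and 6.75%, and members with it had a median change of 0.80 against 1.85 without it.

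Chemokines did not follow the interferon genes upward. Ccl7, which draws monocytes, fell by 2.38 from 7.86, 8.03 and 7.50 to 5.46, 5.12 and 5.65 (SE 0.15, adjusted p = 6.38e-09) and lay at background in DMSO at both times. Gpr15lg, a chemokine-like ligand of epithelia, fell by 1.81. Cxcl10, an interferon-induced chemokine, fell by 2.62 from 7.05, 7.27 and 6.97 to 5.75, 3.75 and 3.94, with 1 of 3 arrays above background at 24 h. Under DMSO Cxcl10 fell as well, at least 2-fold by its fitted change, with no call on the difference. Ccl2 changed by −0.37 (adjusted p = 0.0989). Without 6 h replicate 3 it fell by 0.59 (adjusted p = 0.00743). Cd14, the one leukocyte marker above background, rose from 11.14 to 11.85 by its group means, and the summed linear level of the leukocyte list went from between 2046 and 2604 to between 3512 and 4064. Its part in these results was not tested. In the inflammatory and NF-kB list, 6 of 18 fell and 3 rose (6 and 0 when scaled to the controls), with a median of −0.27. Over all genes 24.9% fell and 34.6% rose. The feedback inhibitor Tnfaip3 rose by 0.56 and the subunit gene Nfkb2 by 0.37, both not called when scaled to the poly-A controls.

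**Figure D3:**
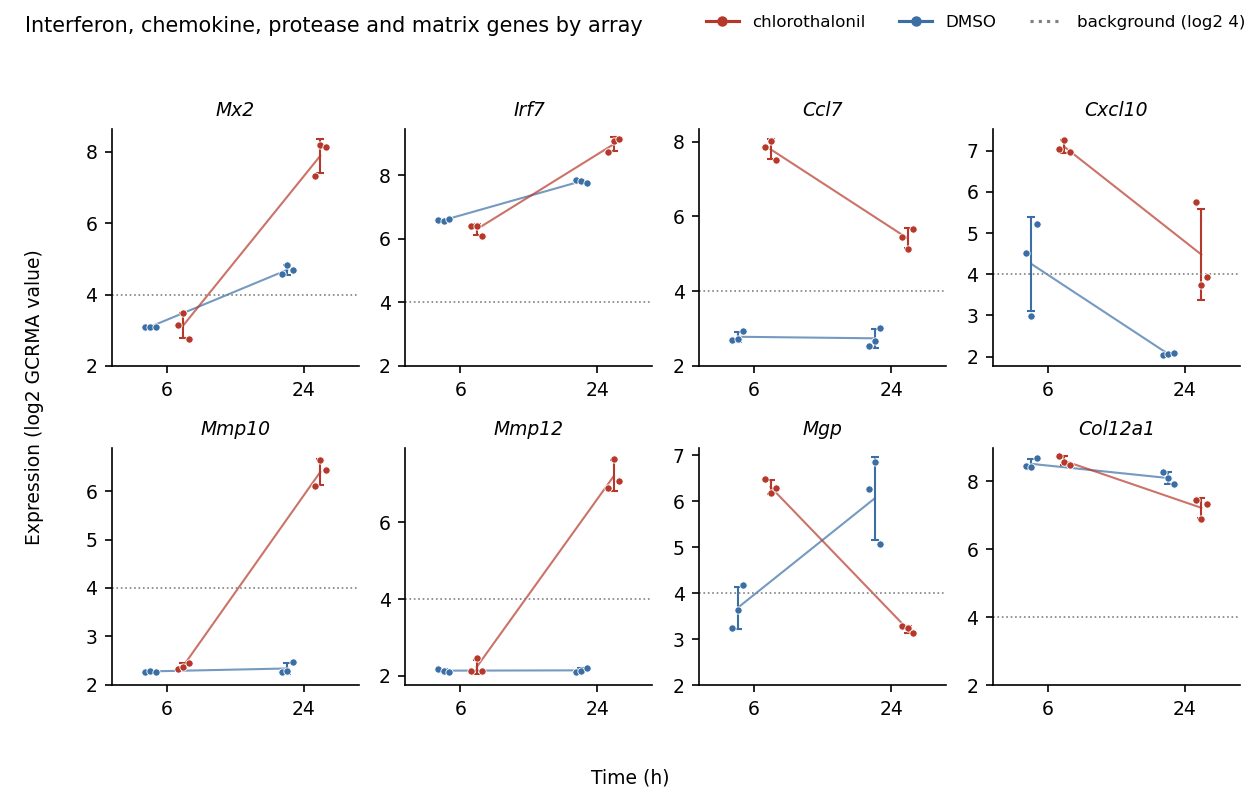
Log2 values of interferon-responsive genes and chemokines (top) and of metalloproteinase and matrix genes (bottom) at 6 and 24 h in chlorothalonil (red) and DMSO (blue), with points for arrays, bars for mean ± SD (n = 3) and a dotted line at background. Mx2, Irf7, Mmp10 and Mmp12 rose in the treated cells while Ccl7, Cxcl10, Mgp and Col12a1 fell, and Mgp rose under DMSO.

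Cell division genes fell. Of 45 mitosis genes tested, 42 fell and none rose, with a median of −0.68 (−0.83 under DMSO). Of 40 DNA replication genes, 38 fell and none rose, with a median of −0.86 (−1.47 under DMSO). Scaled to the poly-A controls, 26 and 29 fell. Helicase and origin genes had 11 of 12 lower with a median of −0.90 against −1.74 under DMSO, and over the whole replication list the difference from DMSO was called upward for 28 genes, which became 0 when scaled to the controls. All 5 chromatin members fell, with a median of −1.08.

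Cdk1, the kinase that starts mitosis, went from 12.60, 12.52 and 12.63 to 11.68, 11.68 and 11.83, and fell by 0.85 (SE 0.072, adjusted p = 1.48e-07). Top2a, which untangles replicated DNA, fell by 1.12, Cenpe, a kinetochore motor, by 1.58 and Ube2c, which marks cyclins for destruction, by 0.81. Pola1, the polymerase that primes replication, went from 9.71, 9.64 and 9.68 to 7.98, 8.14 and 8.34, and fell by 1.52 (adjusted p = 2.12e-08). Pole fell by 1.54, Mcm7 by 0.94 and the ligase Lig1 by 0.79, and Mki67, the proliferation marker Ki-67, by 0.63 (−1.25 under DMSO). None of these genes had overlapping arrays at the 2 times, as held for 2208 of the 2282 genes called lower. The fall was larger than under DMSO for Cdk1 (difference −0.30, adjusted p = 0.0183) and Top2a (difference −0.32, adjusted p = 0.0369) and smaller for Mcm7 (difference 0.92). Over the 45 mitosis genes the difference was called upward for 17 and downward for 5, with a median of 0.13. Scaled to the poly-A controls, these became 0 and 2, with a median of −0.33.

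Cell cycle promoters carry the element TTTGAA, searched on both strands, which stood in 20 of 40 mitosis promoters (50%) against 16% and 9.84%. Its letters can run into those of the heat shock element. The promoter of Cdk1 (chr20:19265043-19265292, plus strand, GRCr8) holds 2 matches, in capitals, and stands for the falling group.
Cdk1: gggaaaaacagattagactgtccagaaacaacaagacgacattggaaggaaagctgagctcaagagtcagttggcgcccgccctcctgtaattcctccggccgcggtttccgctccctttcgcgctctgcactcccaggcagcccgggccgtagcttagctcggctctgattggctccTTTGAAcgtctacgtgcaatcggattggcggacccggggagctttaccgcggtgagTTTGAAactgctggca
Of 18 genes around the G1 decision 13 fell and 3 rose (7 and 1 when scaled to the controls). All 7 tested members of the cyclin group, which also lists the kinase Cdk6, fell. Of the E2F genes 4 of 5 fell, and of 6 inhibitors 3 rose and 2 fell. Rbl2, the p130 pocket protein of resting cells, rose by 1.99 from 6.38, 6.07 and 5.98 to 8.19, 8.10 and 8.11 (adjusted p = 6.19e-10), more than the 0.78 under DMSO. Cdkn1b, the inhibitor p27, rose by 0.64, with another probe set at 0.21, and was not called when scaled to the controls. E2f7 fell by 1.91 and E2f8 by 1.06, both repressors of E2F targets. Ccnd1, cyclin D1, fell by 0.55 from 12.11, 11.86 and 12.01 to 11.48, 11.43 and 11.41 while DMSO rose by 0.65 (adjusted p of the difference = 9.13e-06), and was not called when scaled to the controls. Cdkn1a, the inhibitor p21, changed by −0.08 (adjusted p = 0.456).

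**Figure D4:**
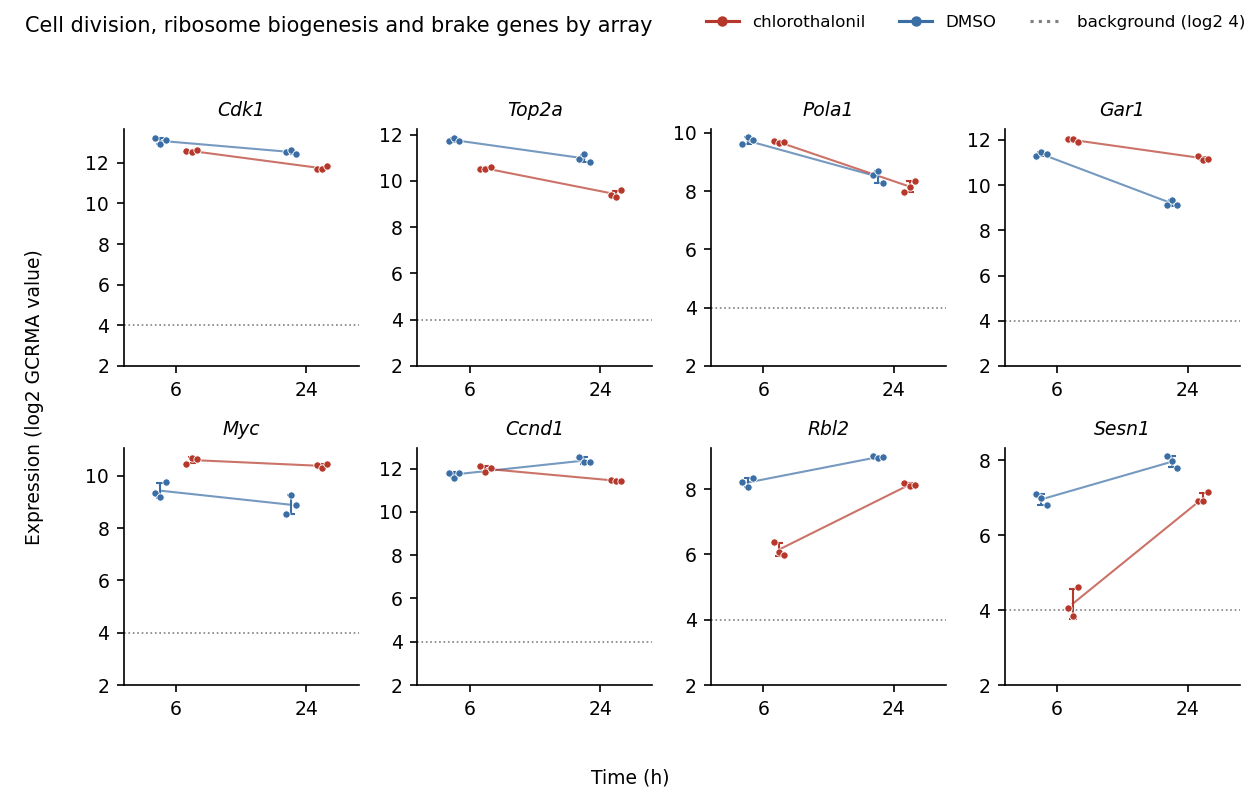
Log2 values of 8 genes of cell division, ribosome biogenesis and growth control at 6 and 24 h in chlorothalonil (red) and DMSO (blue), with points for arrays, bars for mean ± SD (n = 3) and a dotted line at background. Cdk1, Top2a, Pola1, Gar1 and Ccnd1 fell in the treated cells and Rbl2 and Sesn1 rose, while Myc did not pass the test.

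Ribosome biogenesis genes fell, most of them less than under DMSO. Of 49 ribosome biogenesis genes tested, 42 fell and 1 rose, with a median of −0.59 against −1.46 under DMSO, and the difference was called upward for 40. When scaled to the poly-A controls 24 fell, and the difference was called upward for 5. Gar1, of the H/ACA particles that modify rRNA, went from 12.06, 12.04 and 11.89 to 11.27, 11.12 and 11.15, and fell by 0.82 where DMSO fell by 2.18 (adjusted p of the difference = 9.76e-08). Fbl, the methyltransferase fibrillarin, changed by −0.68 against −1.72 under DMSO, Pes1 by −0.59 against −1.13 and Ltv1 by −0.78 against −0.83. The Pes1 call was lost when scaled to the controls. The E-box CACGTG, bound by MYC, stood in 8 of 45 promoters of the list (17.8%) against 5.79% and 8.99%.

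The machinery downstream changed less. By limma, 0 of 20 cytosolic ribosomal protein genes tested, of 41 listed, were called, with 0 at an unadjusted p under 0.05. Their median was −0.03. Rpl5, Rpl7a, Rps3 and Rpl27 changed by −0.09, −0.10, −0.07 and 0.06, with adjusted p from 0.106 to 0.298. Rpl5 was called lower without the filter, with median centring or with limma's trend and robust moderation (adjusted p 0.0286 to 0.0331). Rpl7a was called lower with median centring or quantile normalization (adjusted p 0.0325 and 0.0398). Translation initiation factors had 3 higher and 10 lower of 24 (0 and 2 when scaled to the controls). The 3 higher became 1 without 6 h replicate 2 or 3 or 24 h replicate 1, and 6 with quantile normalization. Eif3a was down by 0.80, Eif1a by 0.56 and Eif2s2 by 0.29. Eif2b4, of the guanine exchange factor that the integrated stress response inhibits, was up by 0.67. Splicing factors had 1 higher and 18 lower of 28, with a median of −0.28 (−0.62 under DMSO), and 0 higher and 2 lower when scaled to the poly-A controls. Snrpa fell by 0.88, Hnrnpf by 0.49 and U2af1 by 0.43, and Srsf5 rose by 0.42. Mitochondrial ribosomal proteins had 9 higher and 9 lower of 30 (0 and 1 when scaled to the controls), beside 34.6% and 24.9% of all genes. Under DMSO 23 of them fell. Mrpl12 was down by 0.77 and Mrps30 up by 0.52, Mrps7 by 0.48 and Mrpl16 by 0.45. Oxidative phosphorylation had 12 higher and 3 lower of 47, beside the same 34.6% and 24.9%. When scaled to the poly-A controls 0 were called and the median of 0.10 turned to −0.16. Ndufb10 rose by 0.62, Ndufa5 by 0.54, Ndufa1 by 0.36 and Uqcrh by 0.30. Of the genes named since the ribosomal proteins, Eif3a, Snrpa and Mrpl12 were the ones still called on that scale.

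Lipid synthesis genes rose, and much less than under DMSO. Of 27 cholesterol synthesis and uptake genes tested, 20 rose and 2 fell, with a median of 0.36 against 1.21, and 22 moved less upward than under DMSO. Among 19 of fatty acid synthesis, 11 were higher and 2 lower, with a median of 0.25 against 1.34, and 16 moved less upward. Scaled to the poly-A controls, 3 and 2 rose, the second median turned to −0.01, and 18 and 13 still moved less upward than under DMSO. Lss, which closes the sterol rings, went from 6.39, 6.24 and 6.35 to 7.58, 8.09 and 7.79 (a rise of 1.5 against 2.76, adjusted p of the difference = 0.000264). Tm7sf2, a sterol reductase, rose by 3.26 from 4.68, 3.77 and 3.0 to 6.78, 7.27 and 7.16, with 1 of 3 arrays above background at 6 h, while DMSO cells reached 11.49 ± 0.099 at 24 h. Stard4, a sterol carrier, rose by 1.29 and Dhcr7, the last enzyme of the pathway, by 0.94. The sterol element TCACNCCAC was found in none of 23 promoters of the list, against 0.976% and 0.958%.

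The desaturases separated most. Fads1 rose by 1.03 from 8.28, 8.23 and 8.32 to 9.18, 9.34 and 9.41, against 3.61 under DMSO, and Scd2 by 1.37 against 2.63. Scd, the main stearoyl-CoA desaturase, stayed at background in all 6 treated arrays, from 2.37 to 2.46, while DMSO cells rose at least 6.15-fold (adjusted p of the difference = 1.97e-14). Acss2, which makes acetyl-CoA from acetate, rose by 1.26 against 4.52, and Lpin1, of triglyceride synthesis, by 1.12 against 2.46. Fasn, fatty acid synthase, fell by 0.29 from 9.93, 9.68 and 9.81 to 9.46, 9.57 and 9.52 where DMSO rose by 1.34. Dhcr7, Fads1, Lpin1 and Fasn were not called when scaled to the poly-A controls, and Scd2 was not called on its gene-specific probe set (0.43, adjusted p = 0.392).

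Genes that burn fat rose. Of 20 fatty acid oxidation genes tested, 16 rose and 1 fell, with a median of 0.61 (0.33 under DMSO), and 5 rose when scaled to the poly-A controls. Acadvl, the very long chain dehydrogenase, went from 8.36, 8.45 and 8.23 to 10.41, 10.49 and 10.38, a rise of 2.08 (SE 0.074, adjusted p = 2.57e-11). Hadh rose by 1.4 against 0.67 under DMSO, Cpt2, the inner carnitine transferase, by 1.29 against 0.55 and Acadm by 1.27 against 1.31. Pdk2, the kinase that closes the entry of pyruvate to the mitochondrion, came from background at 3.22, 3.72 and 3.41 to 7.10, 7.53 and 7.59, at least 10.6-fold higher. Glycolysis genes had 8 higher and 6 lower of 23, beside the 34.6% and 24.9% of all genes, with a median of 0.00, and 3 higher and 0 lower when scaled to the controls. Members included Pfkfb4 at 2.06 against 3.81 under DMSO, Pfkm at 0.76 and Ldhb at 0.60. Hypoxia-responsive genes had 4 higher and 4 lower of 16, beside the same 34.6% and 24.9%, with a median of 0.11. Scaled to the controls, 0 were higher and 1 lower, with a median of −0.16. Vegfa, the vascular growth factor, fell by 1.54 from 10.57, 10.62 and 10.60 to 9.16, 8.95 and 9.06, with no call under DMSO (0.17). Car9 fell by 0.51, and Ddit4, an mTOR inhibitor, rose by 0.76 and Mxi1 by 0.72. Pfkm, Ldhb, Car9, Ddit4 and Mxi1 lost their calls when scaled to the controls.

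In the list of genes answering glucocorticoid or low insulin signals (FOXO), 10 of 14 rose and 2 fell, with a median of 0.50 (0.86 under DMSO). On the poly-A scale 3 rose and 2 fell. Ccng2, a cyclin of resting cells, rose by 1.60 from 10.23, 10.27 and 10.33 to 11.79, 11.93 and 11.92, and Pik3ip1, an inhibitor of PI3 kinase, by 2.17. Sesn1, a sestrin that restrains mTOR, rose by 2.82 from 4.05, 3.84 and 4.61 to 6.91, 6.91 and 7.15 against 1.0 under DMSO, although its other probe set gave 0.67. Fkbp5, a glucocorticoid target, fell by 1.08. Circadian clock genes had 9 higher and 1 lower of 14, with a median of 0.40 (−0.04 under DMSO). With the poly-A scaling 2 rose and 1 fell with a median of 0.13, and without the filter on low values the median was 0.24. Tef rose by 1.30, Per3 by 1.94 from 4.71, 3.70 and 5.10 to 6.47, 6.58 and 6.29, and Cry2 by 0.68, the last not called when scaled to the controls. Cry1 fell by 1.22.

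The p53 targets had 8 higher and 1 lower of 22, beside 34.6% and 24.9% of all genes, with a median of 0.06. Scaled to the poly-A controls, 3 rose and 1 fell with a median of −0.21. Xpc, a sensor of DNA damage, rose by 1.38 from 6.69, 6.78 and 6.82 to 8.36, 7.99 and 8.08, and Bbc3, the death factor PUMA, by 1.39 from 7.73, 8.28 and 7.91 to 9.50, 9.36 and 9.23. Sesn2, a sestrin that ATF4 also induces, fell by 1.17, with another probe set at −0.37. Mdm2, the p53 ligase, changed by 0.06 (adjusted p = 0.577) and Gadd45a by −0.22 (adjusted p = 0.0789). Apoptosis regulators had 5 higher and 6 lower of 15 (0 and 3 when scaled to the controls), beside the same 34.6% and 24.9%. Their median was −0.14. The BH3 protein gene Bcl2l11 (BIM) fell by 1.01 from 10.17, 10.46 and 10.42 to 9.34, 9.36 and 9.33 where DMSO rose by 0.95, although another probe set gave −0.38. Bok fell by 0.96 and the inflammatory caspase Casp4 by 1.16, and Casp8 rose by 0.96, which was not called when scaled to the controls.

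Lysosome and autophagy genes had 16 higher and 4 lower of 27, with a median of 0.22 (0.16 under DMSO). With the poly-A scaling 3 rose and 0 fell, and the median turned to −0.05. Gabarapl1, which decorates autophagosomes, rose by 1.46 from 9.87, 9.91 and 9.92 to 11.30, 11.44 and 11.32, and Ctsd, the lysosomal protease cathepsin D, by 1.19. Wipi1 rose by 1.02 and Ctsl by 0.47, both not called on that scale, with another Ctsl probe set at 0.01.

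Matrix genes fell, and more of them rose than fell under DMSO. Of 29 collagen and matrix genes tested, 20 fell and 2 rose, with a median of −0.34 against 0.46 under DMSO, where 18 rose, and 22 moved less upward than under DMSO. Scaled to the poly-A controls, 8 fell and 1 rose, and 14 moved less upward than under DMSO. Without the filter on low values the treated median was −0.16. Among collagens 8 of 9 fell. Col12a1, a collagen of fibril surfaces, went from 8.75, 8.58 and 8.48 to 7.44, 6.89 and 7.33, and fell by 1.38 (−0.42 under DMSO). Col5a1 fell by 0.82 and Postn, periostin, by 0.81 and by 0.95 under DMSO. Loxl1, which cross-links elastin, moved the other way, from background at 2.45, 2.62 and 3.15 to 5.04, 4.99 and 4.59, at least 1.83-fold higher. Of 9 fibroblast markers on the array, the 4 tested fell (Acta2, Col3a1, Col1a1 and Col1a2), and the summed linear level of the list went from between 7953 and 8901 to between 3412 and 4097 (from 4481 to 5702 and then 3032 to 3691 under DMSO). Its part in the matrix result was not tested. Pdgfra, Pdgfrb, Dcn, Lum and Thy1 were at background in all treated arrays.

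Of 8 tested matrix proteases, 5 rose and 1 fell, while Mmp2, Mmp3, Mmp7, Mmp9 and Mmp13 were among those not tested. Mmp10, stromelysin 2, came from background at 2.32, 2.38 and 2.45 to 6.10, 6.65 and 6.44, at least 5.27-fold higher (adjusted p = 1.57e-09), and was at background throughout DMSO culture. Mmp11 rose by 2.02 from 6.83, 6.58 and 6.90 to 8.75, 8.67 and 8.95, less than under DMSO (2.78), and Plat, the plasminogen activator, by 0.58, not called when scaled to the controls. Over the list of proteases and inhibitors 5 rose and 4 fell of 13 (3 and 3 when scaled to the controls), and 3 of the 5 inhibitors fell. The TGF-beta and mechanical response had 5 higher and 11 lower of 26 (1 and 8 when scaled to the controls), with a median of −0.17. Of 13 YAP or SRF targets, 9 fell, among them Actg2, smooth muscle actin, by 2.70 from 10.22, 10.02 and 10.10 to 7.57, 6.94 and 7.70 (−3.91 under DMSO), and Flna, filamin A, by 0.86. Id1, a target of BMP signals, rose by 1.19 and Smad3 by 1.12, the latter not called when scaled to the controls. Ankrd1, a YAP target, changed by 0.40 (adjusted p = 0.279) where DMSO fell by 1.71.

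Epithelial genes were mixed. Junction and keratin genes had 7 higher and 3 lower of 17, beside 34.6% and 24.9% of all genes, with a median of 0.21. Scaled to the poly-A controls, 2 rose and 2 fell, with a median of −0.05. The gene of the tight junction protein cingulin rose from background in both courses. Krt7, a keratin of simple epithelium, fell at least 5.53-fold to background from 6.48, 6.60 and 6.32, and F11r rose by 0.77. The 7 proximal tubule genes tested had 1 higher and 4 lower, with Enpep, a brush border peptidase, up by 1.83 and Mme, neprilysin, down by 1.53, Slc7a9 by 1.34 and Slc4a4, the bicarbonate cotransporter, by 0.68 where DMSO rose by 1.69. Kidney injury markers had 1 higher and 2 lower of 8 (0 and 0 when scaled to the controls). Cst3 rose by 0.42, Spp1, osteopontin, fell by 0.34 and Vim by 0.16, while Clu, clusterin, changed by 0.23 (adjusted p = 0.0552). F11r, Cst3, Spp1 and Vim were not called when scaled to the controls, and the Vim call was lost without 6 h replicate 1, 2 or 3 or without 24 h replicate 1 or 3 (adjusted p 0.0516 to 0.079).

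Smaller lists showed little order. Metal transport and metallothioneins had 2 higher and 3 lower of 14 (0 and 2 when scaled to the controls). The zinc exporter Slc30a1 fell at least 2.57-fold to background. Under DMSO it fell as well, at least 2-fold by its fitted change, with no call on the difference. Slc39a10 was down by 0.39, Slc30a4 up by 1.05 and Slc39a1 up by 0.41. Mt1, a metallothionein, changed by −0.60 (adjusted p = 0.152) and fell by 1.04 without 6 h replicate 1. AhR and xenobiotic genes had 3 higher of 7 with none lower (1 and 1 when scaled to the controls). Ephx1, the microsomal epoxide hydrolase, rose by 1.19 against 3.83 under DMSO, Por, which feeds electrons to P450 enzymes, by 0.83, and Ahr changed by −0.78 (adjusted p = 0.116). Tubulins and stathmins had 3 higher and 4 lower of 13 (1 and 0 when scaled to the controls). Tuba4a rose at least 1.63-fold from background, Tubb4b by 0.35 and Tbcc by 0.32, the last not called without 6 h replicate 2, and Stmn1 fell by 0.49. Of these genes Slc30a4, Slc39a1, Slc39a10, Por, Tubb4b, Tbcc and Stmn1 were not called when scaled to the poly-A controls. On that scale Ahr (−1.05, adjusted p = 0.0131) and Mt1 (−0.87, adjusted p = 0.0499) were called. Ahr was called as well with quantile normalization (adjusted p = 0.0406) and with only the compared arrays (adjusted p = 0.0248).

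**Figure D5:**
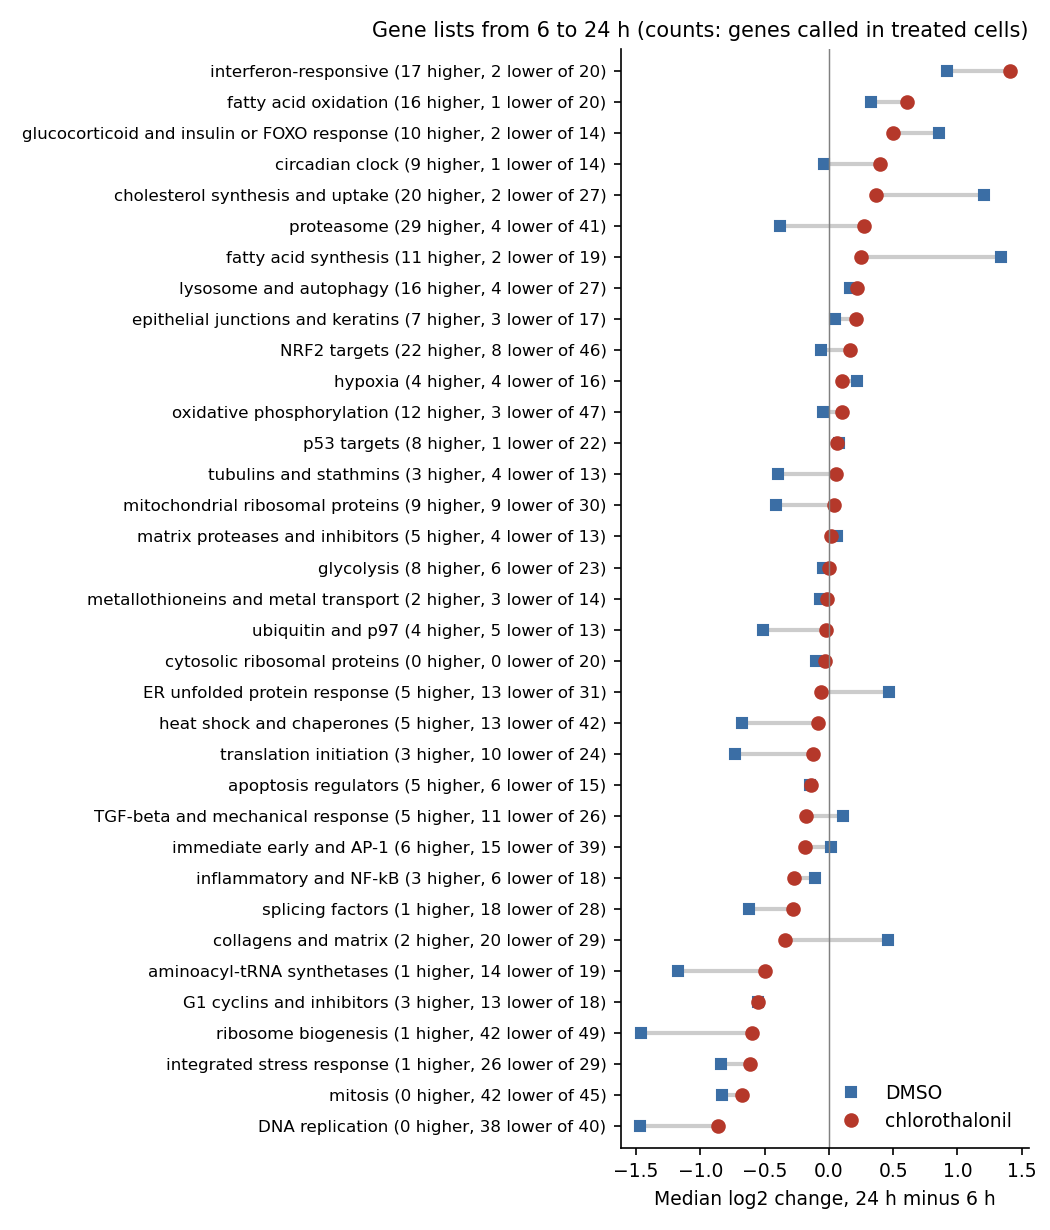
Median log2 change from 6 to 24 h over the tested genes of each list with 10 or more of them, in chlorothalonil (red circles) and DMSO (blue squares), with the genes called in the treated cells in brackets. Interferon-responsive genes sit highest (1.41) and DNA replication lowest (−0.86), and the collagen and the proteasome lists lie on opposite sides of 0 in the 2 courses.

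Some genes took opposite paths with and without chlorothalonil. Mgp, the calcification inhibitor matrix Gla protein, fell at least 4.95-fold to background from 6.48, 6.17 and 6.28, while it rose by 2.38 under DMSO (adjusted p of the difference = 4.69e-07). Timp3, the matrix-bound protease inhibitor, fell by 1.09 from 8.78, 8.97 and 8.85 to 7.89, 7.64 and 7.79 and rose by 3.18 under DMSO. Kitlg, stem cell factor, fell by 2.40 from 6.35, 6.61 and 6.69 to 3.32, 5.15 and 3.98 and rose by 1.72. Omd, the matrix proteoglycan osteomodulin, fell at least 2-fold and rose by 2.61. Col8a2 and Sult1c2 are in this group by small falls near background, and their treated arrays overlapped between the times. The Col8a2 call was lost when 6 h replicate 1 or 3 or 24 h replicate 1 or 2 was left out (adjusted p 0.0759 to 0.225).

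The reverse pattern held for Ifi27l2b, an interferon-inducible protein of the mitochondrial membrane family, which rose by 1.33 from 11.08, 10.89 and 10.78 to 12.38, 12.22 and 12.14 and fell by 2.76 under DMSO. Siae, which removes acetyl groups from sialic acid, rose by 1.70 from 5.88, 5.87 and 5.69 to 7.36, 7.75 and 7.42 and fell at least 2.41-fold to background under DMSO. Fgd6, an exchange factor for CDC42, rose by 2.05 and fell at least 1.85-fold. Syne3, a nuclear envelope spectrin, rose at least 3.55-fold from background, and Abhd2, a lipase, by 0.70, the latter not called when scaled to the controls or without 6 h replicate 3 or 24 h replicate 1 or 2 (adjusted p 0.0609 to 0.0768). Xkr8, a lipid scramblase, was at background at both treated times, so no fold is given.

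Other genes moved by at least 1 on the log2 scale under DMSO with no call in the treated cells. Plcd4, a phospholipase, stayed at 9.30, 9.23 and 9.21 and then 9.08, 9.50 and 9.19 in the treated cells, while DMSO cells went from 7.84 ± 0.31 to background, at least 14.3-fold lower. Aen, a p53-induced nuclease, changed by 0.10 against −2.63, Coa7 by −0.31 against −3.21, Rbm19 by −0.42 against −2.71 and Rbm38 by −0.90 against −2.79 (treated adjusted p = 0.638, 0.307, 0.0682 and 0.138). Ropn1l changed by 0.49 against 5.24, Tmem176b by −0.39 against 5.14, Prph, the neuronal filament peripherin, by −0.48 against a rise of at least 6.54-fold and Kazald1 by 0.61 against 4.18. Without 24 h replicate 1, Ropn1l rose by 0.79 in the treated cells (adjusted p = 0.036). Some treated falls were called under other settings. Rbm38 was called with only the compared arrays (adjusted p = 0.00308), with weights on the arrays (0.0423) and on the poly-A scale (−1.17, adjusted p = 0.00436). Rbm19 was called with only the compared arrays, quantile normalization or median centring (adjusted p 0.0132 to 0.0369). Coa7 was called on the mean of its probe sets (−0.67, adjusted p = 0.000976).

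A smaller set moved alike in both courses by at least 2-fold, with no call on the difference. Leaving out provisional symbols, it held 143 genes higher and 70 lower. Pink1, the kinase that marks damaged mitochondria, rose by 3.09 from 6.55, 5.90 and 4.74 to 8.98, 8.76 and 8.73 and by 3.02 under DMSO (adjusted p of the difference = 0.914). Nxpe4 rose at least 5.46-fold, Cfap69 at least 4.35-fold and Ppl, periplakin of the desmosome, at least 3.77-fold from background. Wnt4, a kidney developmental signal, fell by 2.01 from 7.95, 7.76 and 7.78 to 6.26, 5.34 and 5.86 and by 1.92 under DMSO, and Nr4a3, an immediate early nuclear receptor, fell by 1.98. A difference with no call does not show that the courses are equal.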

How the data were processed

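RNA of 18 cultures was hybridized to Affymetrix arrays, per the labels' protocols. The deposited values are log2 and cover 31099 probe sets. GCRMA is the tool in the submitters' processing notes, with a version not given in the sources used here. That method subtracts a modelled background and brings arrays to a common distribution, so a change common to most genes would be taken out. Of the probe sets, 20832 carry 1 gene symbol, 436 several and 9831 none, and only the first were used. Symbols were updated by Entrez identifier to RefSeq GRCr8 for 20764. A probe set was kept above log2 4 in at least 3 of 18 arrays, and the brightest represented each gene (9148 genes).

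All 18 arrays entered 1 limma 3.58.1 model (R 4.3.3) with 6 group means and 12 residual degrees of freedom. Tests were two-sided, adjusted by the Benjamini-Hochberg method over all genes, and SE is limma's. The fit was tested on simulated data. Arrays only, 3 per group, limit the precision. If replicates share a source, p-values cover only the spread between these arrays.

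The members, the 38 gene lists and 7 marker lists, and the alternatives were chosen with earlier results of these data known. The text names the 12 largest changes per direction, the 6 largest differences from DMSO in each direction among genes called both ways, 5 per direction called under DMSO only, 5 per direction moving alike, the 4 members of each list with the smallest p and a set of 41 stress genes, 35 of them tested. In the rankings, provisional symbols were skipped. These start with LOC, RGD, MGC, AABR or AC and digits, or end in Rik or Rikl. The 12 largest changes were also taken only from called genes with no overlap between the times. Of 1214 listed symbols, 916 were tested. Marker genes and figure genes outside that rule were chosen after their values were seen. Promoters were matched by Entrez identifier. The pairing of each motif with a list and the promoters shown were chosen after values were seen. Of those looked at and not shown, Hspa1a and Stat2 held no match and Chac1 and Ccnb2 did. Same-numbered arrays of the 2 times had correlated deviations of 0.06, −0.08 and −0.03, so no shared deviation by number was seen. This cannot show that same-numbered arrays share no source.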

Additional observations from a re-analysis of the deposited data

Results flagged for a closer look

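The course of the treated cells differed from that of the DMSO cells by a test of the difference itself in many genes. It was called higher for 3623 genes and lower for 2138 on the deposited scale. Among genes called in both courses with opposite signs, the fitted treated minus DMSO change was upward for Ifi27l2b (4.09), Siae (3.98), Abhd2 (3.61), Fgd6 (3.27), Syne3 (3.18) and Xkr8 (2.87), the last at background in the treated cells at both times. It was downward for Col8a2 (−5.87), Mgp (−5.48), Sult1c2 (−4.72), Timp3 (−4.27), Kitlg (−4.12) and Omd (−3.96). Apart from Ifi27l2b, Abhd2, Timp3 and Kitlg, these genes were at background in at least 1 of the 4 groups, so their fitted differences depend on values below background and have no order. The mean of the poly-A controls was 0.27 higher at 24 h in the treated arrays (exact permutation p = 0.3), and in DMSO they lay at 8.97 in 24 h replicate 1 against 10.11 and 10.28 in the other 24 h arrays. Scaled to these controls, the difference was called higher for 259 genes and lower for 1232.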

How the results depend on the processing

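Scaling to the poly-A controls was the one alternative that moved the counts over all genes by more than 1.5 times. It gave 529 higher and 975 lower in the treated course, 413 and 669 at least 2-fold, 259 and 1232 for the difference and 1917 and 1116 under DMSO. With each treated array left out in turn on that scale, which was added once the data had been seen, the median of all genes lay between −0.35 and −0.05, with 327 to 602 genes higher and 464 to 963 lower. Scaling to the controls turned the medians of NRF2 targets (−0.10), fatty acid synthesis (−0.014), hypoxia (−0.16), oxidative phosphorylation (−0.16) and lysosome and autophagy (−0.047), and the changes of Nfe2l2 (−0.13) and Gclm (−0.016). Medians also turned for p53 targets (−0.21), mitochondrial ribosomal proteins (−0.23), glycolysis (−0.26), junctions and keratins (−0.05), matrix proteases (−0.24), tubulins (−0.21) and AhR targets (−0.13). Without the filter on low values, the medians of apoptosis regulators (0.0043), inflammatory and NF-kB genes (0.0052) and proximal tubule function (0.0094) turned. Of the other alternatives, median centring lowered the share of higher genes among those called to 52.2%. Without single treated arrays, 2889 to 2992 genes were higher and 2004 to 2177 lower. No shared deviation by replicate number was seen between the treated times. With the replicate block, 3115 genes were higher and 2236 lower, and of the genes named Nfe2l2 alone lost its call (adjusted p = 0.0608). With only the compared arrays in the fit, Prph, Rbm38, Rbm19, Clu, Ahr, Fosl1 and Ankrd1 gained a call. Col8a2, Sult1c2, Nfe2l2 and Gclm lost theirs in that fit. Signal near background limits genes at log2 4 or below, 131 of which were so at both treated times.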
